A study of Mus musculus with 6 samples.

Results

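Homeostatic microglia markers are genes by which the resident macrophages of the brain are recognised. The 9 described here, Cx3cr1, Fcrls, P2ry12, Tmem119, Csf1r, Trem2, Aif1, Sall1 and Siglech, were taken by gene symbol from the 24848 genes in the tables. All 9 were found, and all 9 passed the filter on low counts that left 15848 genes to be tested. RNA-seq was run on brains of mouse embryos at stage E14.5, in 3 brains labelled E4f1 KO (KO) and 3 labelled wild type (WT). The study's title ties E4F1, a transcription factor with zinc fingers, to pyruvate metabolism, Elongator activity and translation fidelity in brain development. The labels name no strain, allele, Cre driver, litter or sex, and do not say which cells of the KO brains carry the deletion. Nothing in the labels says whether the microglia themselves were KO cells.

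Microglia descend from yolk sac macrophages that enter the neural tube early in development, before the blood-brain barrier closes. They depend on signalling through CSF1R, take up dying cells and debris, and acquire their resident identity under TGF-beta from the surrounding brain. Some of the markers used in the adult brain are acquired late, and some are also made by other cells of the embryo. Tmem119 is reported to appear in mouse microglia mainly after birth and is also a gene of bone-forming osteoblasts. Sall1, a zinc finger repressor of the SALL family, is made by neural progenitors as well as by microglia.

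The 6 libraries held between 42113465 and 74064707 expected counts, that is, read pairs that the RSEM program assigned to genes. E4f1 itself stood at 7.12, 7.01 and 6.92 CPM (read counts scaled to library size) in KO 1 to KO 3, against 20.7, 21.6 and 21.5 CPM in WT 1 to WT 3. Xist, a gene of female cells, stood at 2638, 16.15 and 2442 CPM in KO 1 to KO 3, against 2477, 0.36 and 0.45 CPM in WT 1 to WT 3. Ddx3y, on the Y chromosome, was at 0 in KO 1, KO 3 and WT 1 alone. Sex by these genes was thus not balanced between the groups, and its part was not tested. Some libraries stood apart. Bone genes, a list of 13 written after the data were seen, summed to 42.5, 40.4 and 429.9 TPM (levels scaled to transcript length and library size) in KO 1 to KO 3, against 40.5, 188.9 and 50.9 TPM in WT 1 to WT 3, so that KO 3 and WT 2 were the highest. Midbrain genes (En1, En2 and Pax5) summed to 0.38, 1.6 and 1.35 TPM in KO 1 to KO 3, against 70.3, 35.5 and 3.45 TPM in WT 1 to WT 3, with no overlap of the groups. Nothing in the labels says whether the same stretch of brain was taken each time. Values are therefore also given for a fit without KO 3 and WT 2 (chosen after the data were seen) and for a fit with the midbrain genes as a covariate, in which edgeR called 0 genes (802 at an unadjusted p below 0.05). The midbrain genes did not overlap between the groups, so that fit can hardly separate them from genotype. The standard error (SE) of Cx3cr1, for example, was 0.15 without the covariate and 0.30 with it. A call lost in that fit therefore does not decide between midbrain tissue and genotype.

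Of the 9 markers, Cx3cr1 and Fcrls rose in KO brains, each about 2-fold, none fell, and the other 7 did not pass the test. Across all tested genes 0.511% were called higher and 0.492% were called lower in KO. The fold changes of all 9 were positive, against 49.9% of all tested genes, with a median log2 fold change of 0.89 against -0.00077 over all tested genes. In 6 of the 9 (Cx3cr1, Fcrls, Csf1r, Trem2, Aif1 and Siglech) every KO library lay above every WT library, which was so for 14.6% of all tested genes. These 6 had unadjusted p-values below 0.05 and none was lower at that threshold, against 10.3% of all tested genes higher and 9.31% lower. In a bulk sample, more cells of a type and more RNA per cell cannot be told apart.

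**Figure D1:**
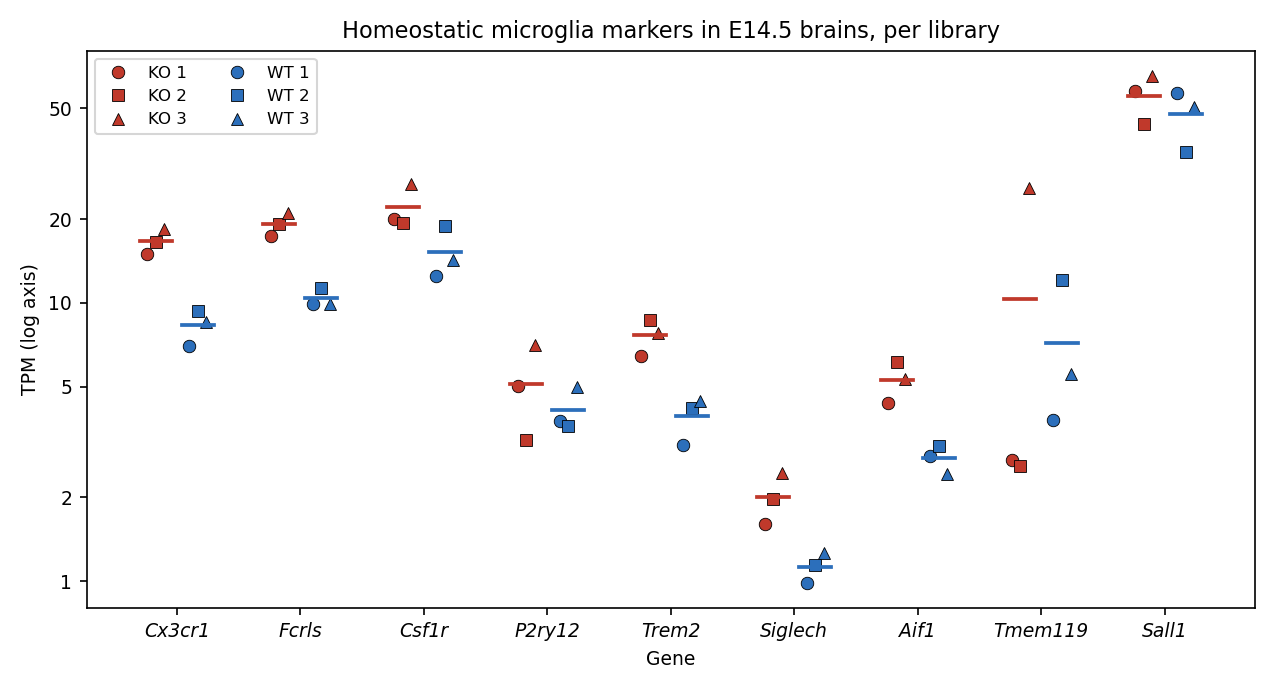
Level of each marker in TPM (log axis) in KO 1 to KO 3 (red) and WT 1 to WT 3 (blue), each point a library and each bar the mean of 3 libraries. The red points of Cx3cr1, Fcrls, Csf1r, Trem2, Siglech and Aif1 all lie above the blue ones, while those of P2ry12, Tmem119 and Sall1 overlap.

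Cx3cr1 encodes the receptor for fractalkine (CX3CL1), a chemokine made by neurons. It stood at 14.9, 16.6 and 18.5 TPM in KO 1 to KO 3, against 7.02, 9.38 and 8.57 TPM in WT 1 to WT 3. The lowest KO library was thus clearly above the highest WT library. Cx3cr1 rose 2.04-fold in KO brains, that is by 1.03 ± 0.15 on the log2 scale (SE, 3 libraries in each group, edgeR adjusted p = 0.0395). Its call ended in each of the 6 fits that left out 1 library, with log2 fold changes between 0.92 and 1.12 and adjusted p-values between 0.0703 and 0.160 (edgeR).

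Fcrls, a scavenger receptor related to Fc receptors, is a marker of microglia in mice. It stood at 17.4, 19.2 and 21.0 TPM in KO 1 to KO 3, against 9.91, 11.3 and 9.89 TPM in WT 1 to WT 3. The 3 libraries of each group lay close together, and the groups were well apart. Fcrls rose 1.88-fold (log2 fold change 0.91 ± 0.12, SE, edgeR adjusted p = 0.0369). Like Cx3cr1 it lost its call whichever single library was dropped, where its log2 fold change was between 0.83 and 0.99 and its adjusted p between 0.0694 and 0.163 (edgeR). Without KO 3 and WT 2 the fold changes of Cx3cr1 and Fcrls were 1.01 ± 0.14 and 0.89 ± 0.12 (edgeR adjusted p = 0.0896 and 0.0870), and with the midbrain genes as a covariate they were 0.94 ± 0.30 and 1.02 ± 0.26 (edgeR adjusted p = 0.938 and 0.923).

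Promoters are shown for Cx3cr1 and Fcrls, the markers that rose, and for Sall1, whose groups overlapped, the 3 most abundant of the 7 markers matched in the RefSeq promoter table (GRCm38.p6). Each window runs from 250 bases before to 50 bases after a RefSeq transcript start, 5′ to 3′ on the gene's strand. Capitals mark the ETS core GGAA and its reverse complement. This core lies within the longer motif GAGGAAGT of PU.1, the ETS factor that directs myeloid development. The windows are chr9:120068247-120068546 (minus strand) for Cx3cr1, chr3:87263475-87263774 (minus strand) for Fcrls and chr8:89044113-89044412 (minus strand), 1 of 3 starts, for Sall1. The transcript start used for Fcrls lies inside the gene as RefSeq bounds it (87250736 to 87263765).
Cx3cr1: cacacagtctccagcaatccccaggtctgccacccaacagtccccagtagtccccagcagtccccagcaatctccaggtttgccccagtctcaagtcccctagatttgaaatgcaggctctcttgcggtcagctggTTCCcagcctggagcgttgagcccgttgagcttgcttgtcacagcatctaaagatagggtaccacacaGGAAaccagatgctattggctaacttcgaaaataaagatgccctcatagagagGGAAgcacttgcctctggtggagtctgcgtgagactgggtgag
Fcrls: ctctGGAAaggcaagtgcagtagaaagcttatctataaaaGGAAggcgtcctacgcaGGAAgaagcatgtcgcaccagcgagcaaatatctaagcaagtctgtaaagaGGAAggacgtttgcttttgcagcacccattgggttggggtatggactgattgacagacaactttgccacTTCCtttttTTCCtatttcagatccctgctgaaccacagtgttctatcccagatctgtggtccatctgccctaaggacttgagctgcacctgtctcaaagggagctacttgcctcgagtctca
Sall1: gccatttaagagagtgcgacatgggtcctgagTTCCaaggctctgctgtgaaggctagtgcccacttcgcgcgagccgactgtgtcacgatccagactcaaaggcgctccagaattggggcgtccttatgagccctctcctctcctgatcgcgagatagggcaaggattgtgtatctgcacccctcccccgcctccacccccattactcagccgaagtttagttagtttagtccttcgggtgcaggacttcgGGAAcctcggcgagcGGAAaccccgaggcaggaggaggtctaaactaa

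The ETS core was found 3 times in the Cx3cr1 window, 6 times in the Fcrls window and 3 times in the Sall1 window, searched on both strands. It occurs in 96.0% of all 32851 promoters in the table, so its presence sets these genes apart from few others. GAGGAAGT, which 3.2% of promoters hold, was in no window of the 7 markers matched (P2ry12, Fcrls, Siglech, Sall1, Cx3cr1, Aif1 and Trem2). TGACGTNA, a form of the motif reported for E4F1, was likewise in none, against 2.93% of all promoters. The SMAD motif CAGAC, found in 49.6% of promoters, occurred 2 times in the Cx3cr1 window, 2 times in the Fcrls window and 1 time in the Sall1 window. These matches are descriptions of letters in these windows and not of binding.

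Trem2 and Aif1 had fold changes about as large as those of Cx3cr1 and Fcrls, from far fewer reads. Trem2, a lipid-sensing receptor that signals through the adaptor TYROBP, stood at 6.44, 8.68 and 7.82 TPM in KO 1 to KO 3, against 3.10, 4.21 and 4.45 TPM in WT 1 to WT 3. Its log2 fold change was 0.995 ± 0.23 (SE, edgeR adjusted p = 0.111). Aif1, which encodes the actin-binding protein IBA1, stood at 4.37, 6.14 and 5.35 TPM in KO 1 to KO 3, against 2.83, 3.07 and 2.42 TPM in WT 1 to WT 3. Its log2 fold change was 0.95 ± 0.24 (SE, edgeR adjusted p = 0.127). These values rest on between 143 and 175 counts of Trem2 per KO library, against 60 to 103 per WT library, and on between 73 and 92 counts of Aif1 per KO library, against 33 to 55 per WT library. DESeq2 called both higher (adjusted p = 0.00525 and 0.0268), a tool that called 5.02% of all tested genes higher and 4.42% lower. With Cx3cr1, Fcrls and Siglech, DESeq2 thus called 5 of the 9 markers higher and none lower.

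Siglech, a sialic acid binding lectin found on mouse microglia and on plasmacytoid dendritic cells, was the least abundant marker. It stood at 1.61, 1.98 and 2.44 TPM in KO 1 to KO 3, against 0.99, 1.14 and 1.26 TPM in WT 1 to WT 3. Its log2 fold change was 0.89 ± 0.24 (SE, edgeR adjusted p = 0.141), and DESeq2 called it higher (adjusted p = 0.0372). No gene of the other dendritic cells, monocytes and granulocytes listed exceeded 3 TPM in any library. That list of 16 summed to between 2.88 and 8.26 TPM in KO and between 3.86 and 5 TPM in WT. Of its 4 members that could be tested, edgeR and DESeq2 called 0. At an unadjusted p below 0.05, 1 of the 4 was lower, against 9.31% of all tested genes. S100a8 and S100a9 were the most abundant, and Xcr1 and Cd300c were at 0 in all 6 libraries.

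Csf1r, the receptor for CSF1 and IL-34 on which microglia depend for survival, was the most abundant marker after Sall1. It stood at 20.1, 19.4 and 26.7 TPM in KO 1 to KO 3, against 12.5, 18.9 and 14.2 TPM in WT 1 to WT 3. The groups came close to touching, since WT 2 lay just below KO 2. Its log2 fold change was 0.56 ± 0.20 (SE, edgeR adjusted p = 0.208), and no alternative among the 21 called it. Without KO 3 and WT 2 it had 0.56 ± 0.11, Trem2 had 1.01 ± 0.30, Aif1 had 0.99 ± 0.30 and Siglech had 0.70 ± 0.27, with edgeR adjusted p-values between 0.1505 and 0.285. In GENCODE, 78 bases of Cx3cr1 exons are shared with a predicted antisense gene, Gm33858, and 873 bases of Csf1r exons are shared with Hmgxb3 on the opposite strand, and the strand setting of the counting is not given in the sources used here. Hmgxb3 stood at 32.6, 34.9 and 31.9 TPM in KO 1 to KO 3, against 34.6, 35.5 and 34.5 TPM in WT 1 to WT 3.

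P2ry12, the ADP receptor by which microglial processes sense injury, did not follow these 6 markers. It stood at 5.05, 3.23 and 7.05 TPM in KO 1 to KO 3, against 3.78, 3.61 and 4.98 TPM in WT 1 to WT 3. KO 2 was the lowest of all 6 libraries and KO 3 the highest. The log2 fold change was 0.34 ± 0.32 (SE, 95% interval -0.44 to 1.11, edgeR adjusted p = 0.588). It turned to -0.087 ± 0.30 without KO 3 and WT 2 and to -0.19 ± 0.58 with the midbrain genes as a covariate. P2ry12 lies inside Med12l, a subunit gene of the Mediator kinase module that is read from the opposite strand and shares 9 exonic bases with it. Med12l stood at 12.6, 15.3 and 10.4 TPM in KO 1 to KO 3, against 12.3, 13.7 and 12 TPM in WT 1 to WT 3.

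The purinergic neighbour P2ry13, another ADP receptor of microglia within Med12l, stood at 2.62, 2.30 and 3.11 TPM in KO 1 to KO 3, against 1.57, 2.05 and 2.21 TPM in WT 1 to WT 3. Its groups did not overlap, but it did not pass the test (log2 fold change 0.49 ± 0.23, SE, edgeR adjusted p = 0.297). P2ry13 was picked here for its place beside P2ry12 after its values were seen.

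Tmem119 went against its label as a microglial marker in these brains. It stood at 2.72, 2.60 and 25.8 TPM in KO 1 to KO 3, against 3.80, 12.1 and 5.57 TPM in WT 1 to WT 3. KO 3 was by far the highest library, WT 2 came next, and the other KO libraries were the lowest of all 6. The log2 fold change was 0.58 ± 0.99 (SE, 95% interval -1.82 to 2.98, edgeR adjusted p = 0.772), and it was -1.41 ± 0.52 without KO 3 (adjusted p = 0.343) and -0.82 ± 0.26 without KO 3 and WT 2 (adjusted p = 0.236). With the midbrain genes as a covariate it was 0.95 ± 2.19, and without WT 2 alone 1.18 ± 1.15. Its difference from the other 8 markers was measured as the root mean square difference of log2 CPM over the 6 libraries, each gene centred on its mean. That measure was between 1.01 and 1.26 for Tmem119 and at most 0.552 between any other pair of markers.

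By the same measure, the tested gene most like Tmem119 was Runx2, the master transcription factor of osteoblasts, at 0.117. Col24a1, a collagen of forming bone, and Col1a2, a chain of type I collagen, followed at 0.215 and 0.296, and Acp5, the acid phosphatase of osteoclasts, was among the 10 most alike at 0.371. Runx2 stood at 0.48, 0.35 and 3.64 TPM in KO 1 to KO 3, against 0.52, 2.04 and 0.88 TPM in WT 1 to WT 3. Ibsp, the bone sialoprotein, ranged from 1.26 to 295.6 TPM among KO libraries and from 0.18 to 108.4 TPM among WT libraries, with KO 3 and WT 2 again the highest. These genes were chosen for their likeness to Tmem119 or their role in bone after the values were seen, and the part of bone tissue in the Tmem119 values was not tested.

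**Figure D2:**
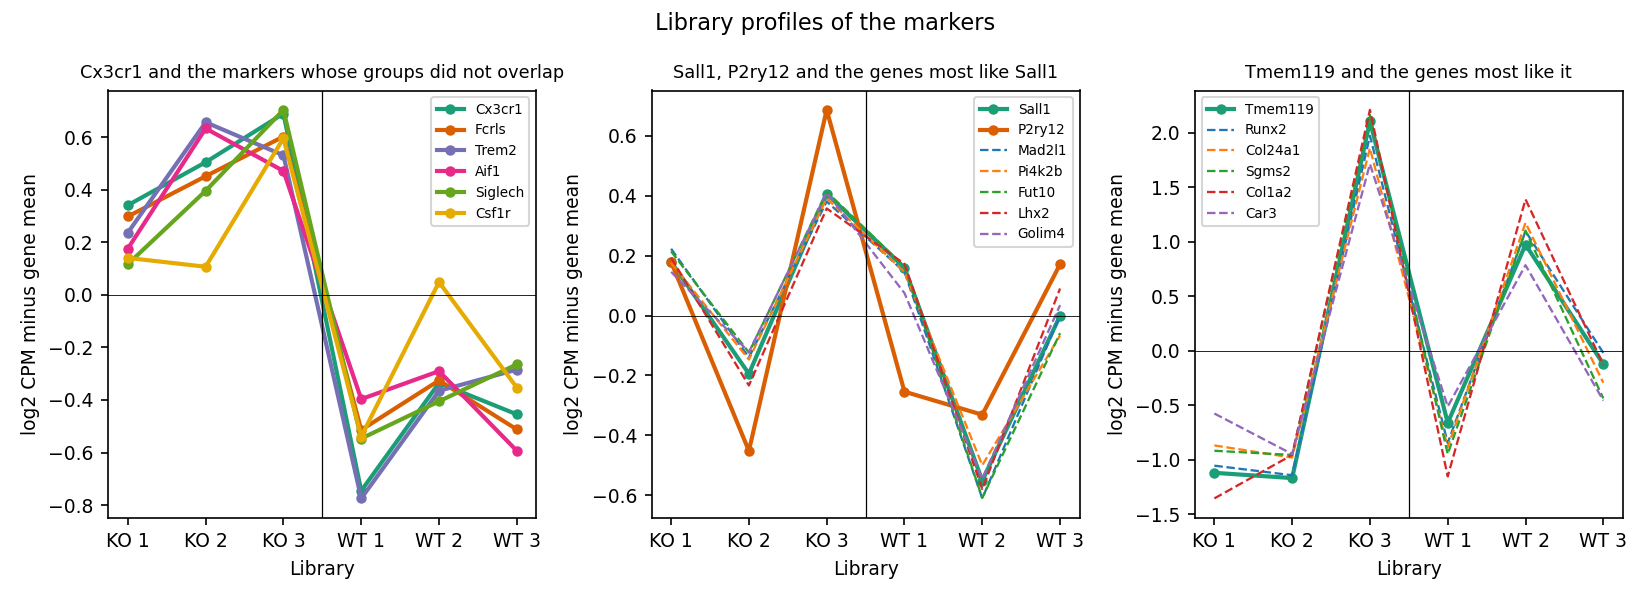
Profiles over the 6 libraries as log2 CPM minus the gene's mean (y axis), with KO libraries left of the vertical line and WT libraries right of it; solid lines are markers, and dashed lines are the 5 tested genes most like Sall1 or Tmem119. Cx3cr1, Fcrls, Trem2, Aif1, Siglech and Csf1r are above their mean in every KO library, Sall1 runs with Mad2l1 and Lhx2, and Tmem119 runs with Runx2, high in KO 3 and WT 2.

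Sall1 was the most abundant of the 9 markers and showed no difference beyond its spread. It stood at 57.5, 43.9 and 65.3 TPM in KO 1 to KO 3, against 57.0, 34.9 and 50.7 TPM in WT 1 to WT 3. The groups overlapped widely, with WT 2 the lowest library and KO 3 the highest. The log2 fold change was 0.25 ± 0.22 (SE, 95% interval -0.29 to 0.79, edgeR adjusted p = 0.561), and it was -0.088 ± 0.15 without KO 3 and WT 2 (adjusted p = 0.800) and 0.16 ± 0.44 with the midbrain genes as a covariate. Per length, Sall1 had between 2.27 and 2.87 times the level of Csf1r in KO libraries and between 1.84 and 4.54 times in WT libraries.

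The tested genes most like Sall1 over the 6 libraries were not macrophage genes. They included Mad2l1, a mitotic checkpoint gene, at a root mean square difference of 0.0394, and Lhx2, a transcription factor of forebrain progenitors, at 0.0472, which were picked from the 10 most alike after their values were seen. Lhx2 stood at 242.3, 180.4 and 271.7 CPM in KO 1 to KO 3, against 239.0, 141.9 and 225.8 CPM in WT 1 to WT 3. Among 12 related genes, Sall2, Sall3, Sall4 and 9 genes of neural progenitors, the median log2 fold change was 0.03. EdgeR called 0 of them and DESeq2 called 1 lower, the number also lower before adjustment (p below 0.05). Over all tested genes, 4.42% were lower by DESeq2 and 9.31% were lower before adjustment. Proliferation genes, with Mki67 and Top2a the most abundant of the 8, had no call by edgeR, DESeq2 or at an unadjusted p below 0.05, and were lowest in WT 2 as was Sall1. All 8 proliferation genes had positive fold changes, against 49.9% of all tested genes, with a median log2 fold change of 0.35. They summed to 575.6, 461.5 and 605.4 TPM in KO 1 to KO 3, against 531.8, 269.7 and 481.1 TPM in WT 1 to WT 3.

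The order of the levels differed little between the groups. In KO brains the mean was 55.6 TPM for Sall1, 22.0 for Csf1r, 19.2 for Fcrls, 16.7 for Cx3cr1, 10.4 for Tmem119, 7.65 for Trem2, 5.29 for Aif1, 5.11 for P2ry12 and 2.01 for Siglech. In WT brains it was 47.5 TPM for Sall1, 15.2 for Csf1r, 10.4 for Fcrls, 8.32 for Cx3cr1, 7.17 for Tmem119, 4.12 for P2ry12, 3.92 for Trem2, 2.77 for Aif1 and 1.13 for Siglech. Sall1 lay above Csf1r and Siglech below all others in every library of both groups. The ranges of Csf1r and Fcrls, of Fcrls and Cx3cr1, of Trem2 and P2ry12, and of Aif1 and P2ry12 overlapped among the KO libraries, those of P2ry12 and Trem2 overlapped among the WT libraries, and Tmem119 overlapped with most of the others.

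The markers are spread over the genome. In RefSeq (GRCm38) Sall1 lies at chr8:89027242-89044162, Csf1r at chr18:61105572-61131139, Fcrls at chr3:87250736-87263765, Cx3cr1 at chr9:120048683-120068296 and Tmem119 at chr5:113793729-113800396. Trem2 lies at chr17:48346401-48352276, Aif1 at chr17:35170986-35176083, P2ry12 at chr3:59216271-59262985 and Siglech at chr7:55768154-55779448. Csf1r, Trem2 and Siglech are on the plus strand and the others on the minus strand, and the values count reads over whole genes.

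Ratios within a library set the markers against each other without regard to scaling. The TPM of Cx3cr1 was 0.745, 0.854 and 0.692 of that of Csf1r in KO 1 to KO 3, against 0.560, 0.495 and 0.603 in WT 1 to WT 3, with no overlap of the groups. The ratio of Siglech to Csf1r, which was between 0.080 and 0.102 in KO and between 0.060 and 0.089 in WT, overlapped, as did those of Fcrls, Trem2, Aif1, P2ry12, Tmem119 and Sall1. Cx3cr1 and Fcrls had the most alike profiles of any pair of markers (root mean square difference 0.107), followed by Fcrls with Aif1 (0.120) and Cx3cr1 with Trem2 (0.122). P2ry12 was closer to Sall1 (0.256) than to any other marker.

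Summed over the 9 markers, the level was 130.1, 121.7 and 179.8 TPM in KO 1 to KO 3, against 100.9, 98.7 and 102.1 TPM in WT 1 to WT 3. Sall1 made up between 36.1% and 44.2% of this sum in KO and between 35.4% and 56.4% in WT. Without Sall1 and Tmem119, a choice made after their values were seen, the other 7 markers summed to 69.9, 75.2 and 88.8 TPM in KO 1 to KO 3, against 40.2, 51.7 and 45.8 TPM in WT 1 to WT 3. On the scale of CPM, the ratio of the mean KO sum to the mean WT sum was 1.36 for all 9 and 1.69 for these 7. With KO 3 and WT 2 left out it was 1.13 for all 9. In the libraries that remain, the 7 markers summed to 71.85 and 75.07 CPM in KO 1 and KO 2, against 40.98 and 47.46 CPM in WT 1 and WT 3.

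Ligands of the marker receptors did not pass the test. Csf1, a ligand of CSF1R, stood at 14.4, 16.4 and 20.8 TPM in KO 1 to KO 3, against 8.72, 12.5 and 10.03 TPM in WT 1 to WT 3, without overlap (log2 fold change 0.74 ± 0.19, SE, edgeR adjusted p = 0.134). Il34, the other ligand, had 0.69 ± 0.43 and overlapped between the groups, as did the chemokine ligand Cx3cl1 with -0.05 ± 0.38 (edgeR adjusted p = 0.418 and 0.951). Tyrobp, the adaptor of TREM2, stood at 27.9, 34.2 and 36.5 TPM in KO 1 to KO 3, against 13.98, 23.2 and 13.6 TPM in WT 1 to WT 3 (log2 fold change 0.97 ± 0.26, SE, edgeR adjusted p = 0.140). Of 12 tested ligands and adaptors none was called by edgeR, 3 were higher by DESeq2 and 5 were higher before adjustment (p below 0.05). The shares over all tested genes were 5.02% by DESeq2 and 10.3% before adjustment.

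The TGF-beta genes, on which the identity of microglia depends, showed no calls. Of 14 tested, edgeR and DESeq2 called 0, and none reached an unadjusted p below 0.05, with a median log2 fold change of 0.04. Tgfb1 had 0.56 ± 0.29 (SE, edgeR adjusted p = 0.344) and was highest in KO 3 at 24.8 TPM, against at most 14.3 TPM in any WT library.

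Among 12 tested transcription factors of myeloid cells and microglia, none was called by edgeR. DESeq2 called 3 higher and 1 lower, and the same numbers had unadjusted p-values below 0.05. The shares over all tested genes were 5.02% higher and 4.42% lower by DESeq2, and 10.3% higher and 9.31% lower before adjustment. Spi1, which encodes PU.1, stood at 5.47, 6.92 and 9.10 TPM in KO 1 to KO 3, against 3.06, 4.81 and 3.27 TPM in WT 1 to WT 3 (log2 fold change 0.98 ± 0.29, SE, edgeR adjusted p = 0.153). Irf8, a partner of PU.1, stood at 3.48, 3.42 and 4.02 TPM in KO 1 to KO 3, against 1.86, 2.04 and 1.65 TPM in WT 1 to WT 3 (0.997 ± 0.18, SE, edgeR adjusted p = 0.0648). Neither gene overlapped between the groups. Ikzf1, a lymphoid and myeloid factor named after its values were seen, lay the other way, with every KO library below every WT library (-0.96 ± 0.27, SE, edgeR adjusted p = 0.144). The median of the list was 0.11, with 8 of 12 positive. Runx1, a factor of early blood and microglial progenitors, overlapped and had 0.39 ± 0.34 (SE, edgeR adjusted p = 0.552).

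The wider set of 25 microglial identity genes pointed the same way as the markers in most members. Of these, 24 had positive fold changes, with a median of 0.51, and in 12 every KO library lay above every WT library. EdgeR called none, DESeq2 called 7 higher, and 9 were higher before adjustment (p below 0.05). Over all tested genes, 49.9% had positive fold changes and 14.6% had every KO library above every WT library. DESeq2 called 5.02% of all tested genes higher, and 10.3% were higher before adjustment. Complement C1qa, C1qb and C1qc had fold changes of 0.84 ± 0.29, 0.87 ± 0.29 and 0.96 ± 0.28 (edgeR adjusted p = 0.194, 0.189 and 0.155). Itgam, with 0.07 ± 0.29, and Ptprc, with 0.25 ± 0.35, both broad markers of leukocytes, overlapped between the groups. The C1q genes, Itgam and Ptprc were chosen after their values were seen.

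**Figure D3:**
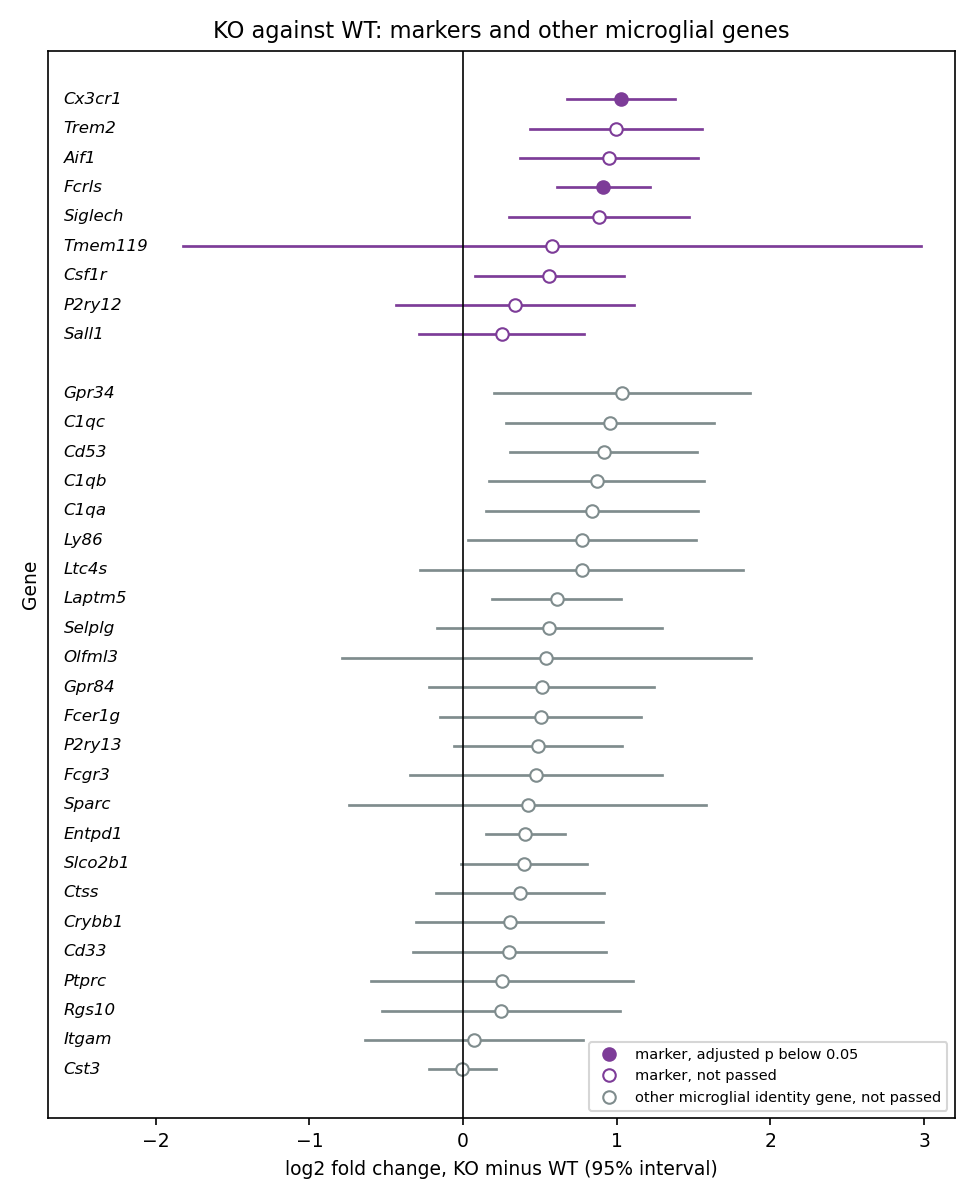
Log2 fold change, KO minus WT, with its 95% interval (x axis) for the 9 markers (purple) and other microglial identity genes (grey); filled points passed an adjusted p below 0.05. Cx3cr1 and Fcrls have the narrowest intervals among the markers, Tmem119 the widest, and all but 1 of the grey points lie right of 0.

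Other macrophages and other cells were set beside the markers. Genes of reactive and phagocytic microglia had a median log2 fold change of 0.99 over 18 tested, with 17 positive. EdgeR called 3 of the 18 higher and none lower. DESeq2 called 13 higher and 1 lower, and 14 were higher and 1 lower before adjustment (p below 0.05). The shares over all tested genes were 0.511% higher and 0.492% lower by edgeR, and 5.02% higher and 4.42% lower by DESeq2. Before adjustment these shares were 10.3% higher and 9.31% lower. Clec7a, Itgax and Ccl6 were called higher, with fold changes of 3.07 ± 0.32, 3.28 ± 0.39 and 2.27 ± 0.35 (SE, edgeR adjusted p = 0.0129, 0.0221 and 0.0495), and were named after their values were seen. Their WT levels were low, at 17 to 27 counts per library for Clec7a, 6 to 17 for Itgax and 22 to 31 for Ccl6. The KO libraries held 135 to 209, 68 to 129 and 111 to 168 counts. All 3 calls ended with the midbrain genes as a covariate (2.75 ± 0.64, 2.66 ± 0.68 and 2.16 ± 0.76, edgeR adjusted p = 0.888, 0.930 and 0.938), in the 4 libraries KO 1, KO 2, WT 1 and WT 2 alone, and without KO 1, KO 2 or WT 3. They also ended with the replicate number as a block (edgeR adjusted p = 0.0502, 0.0706 and 0.0743). The call of Itgax also ended without WT 1 or WT 2, that of Ccl6 without KO 3 or WT 1, and those of Itgax and Ccl6 without KO 3 and WT 2, while all 3 fold changes stayed at or above 1.99 in these fits. Of the most abundant genes of that list, Ctsd had 0.50 ± 0.09 and Fabp5, which is also made by neural progenitors, had -0.34 ± 0.07 (edgeR adjusted p = 0.0695 and 0.0890). Genes of border macrophages had a median of 0.36 over 10 tested, and all 10 fold changes were positive, against 49.9% of all tested genes. Neither edgeR nor DESeq2 called any of these border macrophage genes. At an unadjusted p below 0.05, 1 of the 10 was higher, against the share of 10.3% given above. They summed to 58.7, 51.9 and 132.3 TPM in KO 1 to KO 3, against 57.5, 88.4 and 43.4 TPM in WT 1 to WT 3, and their most abundant members, Pf4 and Stab1, were highest in KO 3. The difference between these lists and the markers was not tested.

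**Figure D4:**
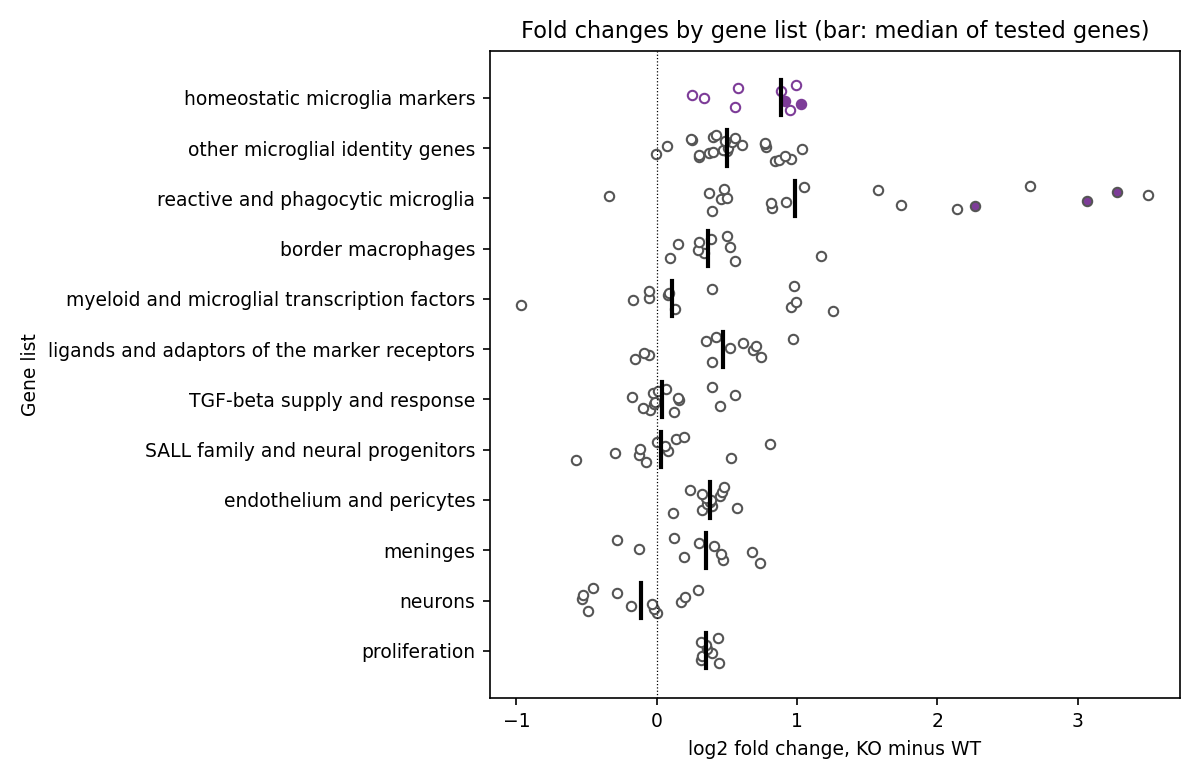
Log2 fold change, KO minus WT (x axis), of each tested gene in 12 lists, with the median of a list as a bar and genes at an adjusted p below 0.05 filled. The markers have a median of 0.89, the reactive microglia list 0.99, the other microglial identity genes 0.51 and the border macrophages 0.36.

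Vascular genes lay on the same side as the markers, at smaller fold changes. All 13 tested genes of endothelium and pericytes had positive fold changes, against 49.9% of all tested genes, with a median of 0.38. None was called by edgeR, 3 were higher by DESeq2 and 5 were higher before adjustment (p below 0.05). The shares over all tested genes were 5.02% by DESeq2 and 10.3% before adjustment. The 13 vascular genes summed to 408.1, 387.4 and 527.5 TPM in KO 1 to KO 3, against 320.3, 379.0 and 313.0 TPM in WT 1 to WT 3. Of the most abundant, Cldn5 had 0.57 ± 0.18 and Rgs5 0.24 ± 0.15 (edgeR adjusted p = 0.182 and 0.411). Meningeal genes, with Col1a1 and Col1a2 the most abundant, had a median of 0.36 over 10 tested and no call by edgeR, DESeq2 or at an unadjusted p below 0.05. They summed to 477.5, 632.3 and 2679 TPM in KO 1 to KO 3, against 557.0, 1489 and 806.0 TPM in WT 1 to WT 3.

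Erythroid genes, led by Hba-a1 and Hba-a2, summed to between 4480 and 6373 TPM in KO and between 2015 and 5769 TPM in WT. Of 11 tested, none was called by edgeR, 2 were higher by DESeq2 and 2 were higher before adjustment (p below 0.05). The shares over all tested genes were 5.02% by DESeq2 and 10.3% before adjustment. Hbb-y, an embryonic globin, stood at 58.55, 92.3 and 173.5 TPM in KO 1 to KO 3, against 2346, 10.3 and 65.6 TPM in WT 1 to WT 3, so that WT 1 stood apart. The 4 adult globins Hba-a1, Hba-a2, Hbb-bs and Hbb-bt had every KO library above every WT library, as had the 6 markers and 14.6% of all tested genes. Their log2 fold changes were between 0.69 and 1.25, with edgeR adjusted p-values between 0.202 and 0.272. The globins other than Hba-a1 and Hba-a2, and Tbr1 and Snap25 among neuronal genes, were named after their values were seen.

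Neuronal genes summed to between 4285 and 4790 TPM in KO, against 5316 to 6244 TPM in WT. Of the 12, none was called by edgeR, 4 were lower by DESeq2 and 4 were lower before adjustment (p below 0.05). The shares over all tested genes were 4.42% by DESeq2 and 9.31% before adjustment. The median fold change over the 12 was -0.11, and 4 were positive, with Tbr1, a factor of cortical projection neurons, at 0.30 ± 0.33 and Snap25, a synaptic fusion protein, at 0.20 ± 0.16. Tubb3 and Stmn2, the most abundant and the largest parts of the sum, had fold changes of -0.46 ± 0.12 and -0.53 ± 0.18 (edgeR adjusted p = 0.138 and 0.192). Genes of lymphoid cells, mast cells and megakaryocytes, led by Kit and Pf4, had no call by edgeR, DESeq2 or at an unadjusted p below 0.05. They summed to between 73.5 and 101.4 TPM in KO, against 68.4 to 79.1 TPM in WT, and the defining B and T cell genes Cd3e and Ms4a1 did not exceed 0.04 TPM in any library. The part of vessels, blood, midbrain tissue or neurons in the marker values was not tested.

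The 10 tested genes most like the mean profile of the 9 markers, among those with a mean of at least 1 CPM, had root mean square differences between 0.0408 and 0.0919. They included Tmem63a, Arhgap30, Ehd2, Fkbp9, Arpc1b, Samsn1, Icam1, Fkbp14 and Bag3. In each of the 10 every KO library lay above every WT library, and none passed the test, with edgeR adjusted p-values between 0.179 and 0.237. These 10 were picked for likeness to a profile that is itself higher in KO. Their lack of overlap, seen in 14.6% of all tested genes, thus follows largely from the choice. The mean profile is highest in KO 3. By the same measure taken for single markers, Zfp459, a zinc finger gene, was nearest to both Cx3cr1 (0.0774) and Trem2 (0.0731), Loxl1, a lysyl oxidase of the matrix, to P2ry12 (0.119) and Stard10, a lipid transfer protein, to Aif1 (0.108). Cd68, a lysosomal glycoprotein of macrophages, was nearest to Fcrls (0.0686), Vsir, an immune checkpoint receptor, to Csf1r (0.0412) and Bin2, a membrane-shaping protein of leukocytes, to Siglech (0.0517). These were looked up after the values were seen, as were Med12l and Hmgxb3.

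**Figure D5:**
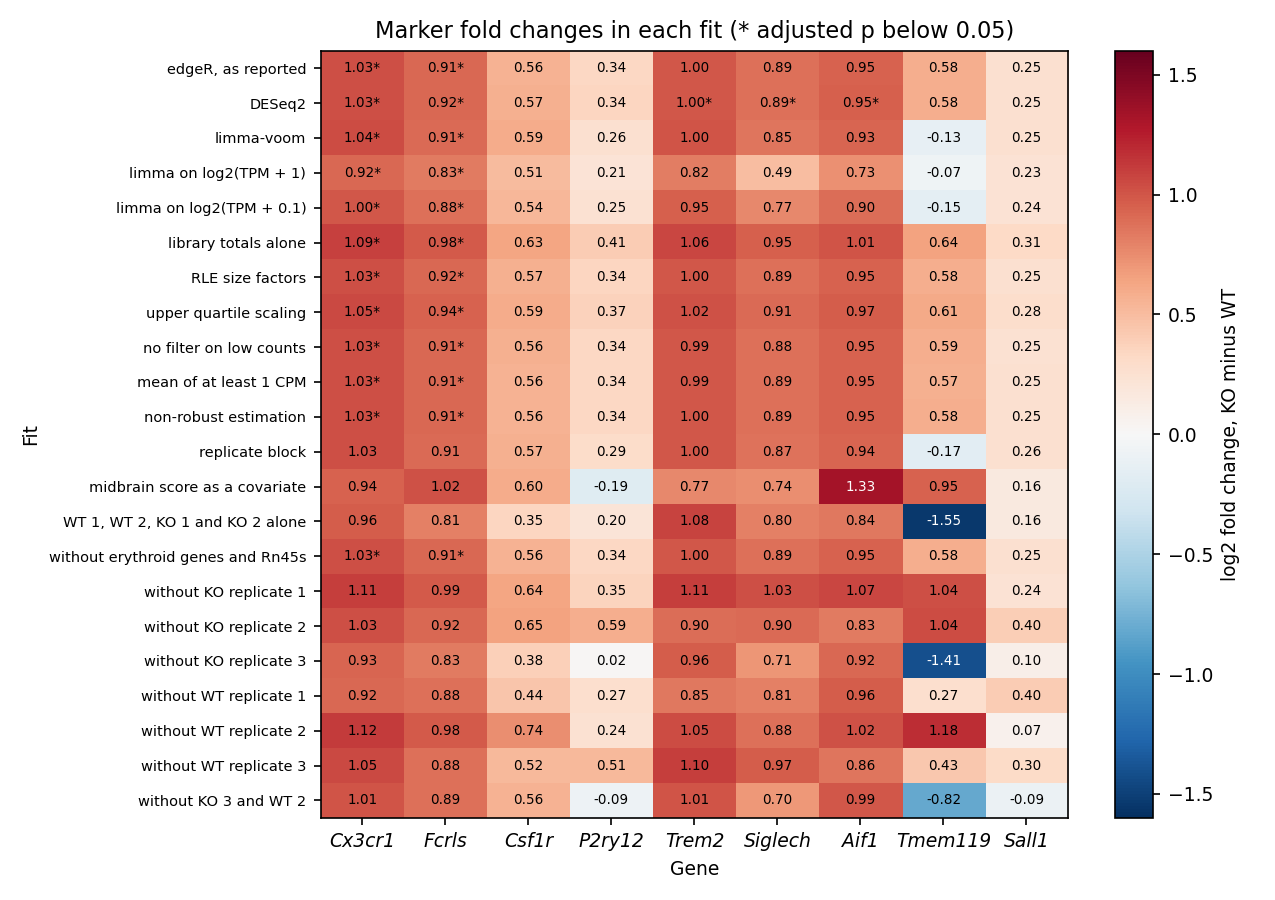
Log2 fold change, KO minus WT, of each marker (columns) in the edgeR fit as reported and 21 other fits (rows), coloured from blue (lower in KO) to red (higher in KO), with an asterisk at an adjusted p below 0.05. Cx3cr1 and Fcrls keep fold changes between 0.81 and 1.12 in all fits, while Tmem119 ranges from -1.55 to 1.18.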

How the data were processed

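RNA was sequenced from 6 brains, 3 KO and 3 WT, with a stranded mRNA kit per the labels' protocols. Tools named in the submitters' processing notes are FastQC, Trimmomatic, STAR (2.5.3a) and RSEM (1.2.28), with the builds mm10 and GRCm38, without their order or settings. Each gene has an expected count and a TPM in the deposited tables, per the file headers. The deposited TPM values are scaled by the authors to length and to 1 total, and serve here as levels.

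Expected counts were rounded and tested with edgeR (4.0.16): filterByExpr, TMM scaling, robust quasi-likelihood F test, two-sided, with Benjamini-Hochberg adjustment over all 15848 genes and a threshold of 0.05. Fold changes are log2, KO minus WT, and SE is the value that gives the F statistic. Alternatives were DESeq2 (1.42.0), limma (3.58.1), other scalings, filters, blocks, covariates and left-out libraries. Pairs of libraries of 1 group differed beyond sampling noise (chi-square per degree of freedom from 45.5 to 176.7). Nothing states litters or separate preparations, so p-values measure the spread between these samples.

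Members and gene lists were chosen with earlier results of these data known. Named are all members, 8 ligands, adaptors and factors, the called genes of the pathway lists (there were none), the 2 most abundant genes of each cell type list and the 10 genes most like the members, with predicted models left out. Some genes these rules select are not reported here. For likeness, 0.1 was added to CPM before taking log2. Positions and promoters are from RefSeq (GRCm38.p6), exon overlaps from GENCODE.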

Additional observations from a re-analysis of the deposited data

How the results depend on the processing

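The 21 other fits left the direction of Cx3cr1, Fcrls, Csf1r, Trem2, Aif1 and Siglech as reported, and Cx3cr1 and Fcrls were each called in 11 of them. The count of called markers, 2, was 5 by DESeq2 and 0 with the replicate block, with the midbrain genes as a covariate, with KO 1, KO 2, WT 1 and WT 2 alone, without KO 3 and WT 2, and without any single library (0 in all 6). The count of called genes, 159, was 1497 by DESeq2, 66 with the replicate block, 0 with the midbrain covariate, 0 in the 4 libraries alone (802 and 1546 at an unadjusted p below 0.05), 62 without KO 3 and WT 2, and between 36 and 82 without single libraries. Scaling by library totals called 123 genes higher and 63 lower, against 81 and 78. The 25 other identity genes had 7 calls by DESeq2 and 1 under library totals, against 0. The median of the 9 markers, 0.89, was 0.51 by limma on log2(TPM + 1), where the pseudocount shrinks low genes, and the KO to WT ratio of summed CPM, 1.36, was 1.69 for the 7 markers other than Sall1 and Tmem119. The remaining causes were not tested.

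Directions turned for P2ry12 with the midbrain covariate (-0.19) and without KO 3 and WT 2 (-0.087), for Sall1 without KO 3 and WT 2 (-0.088), and for Tmem119 by limma-voom (-0.13), by limma with TPM + 1 on the log2 scale (-0.069) or TPM + 0.1 (-0.15), with the replicate block (-0.17), in the 4 libraries alone (-1.55), without KO 3 (-1.41) and without KO 3 and WT 2 (-0.82). The fits of Tmem119 without single libraries lay between -1.41 and 1.18. None of these values passed a test.

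Replicate numbers were not treated as pairs: the deviations of same-numbered KO and WT libraries correlated at 0.131, 0.174 and 0.00121, and those of differently numbered ones between -0.235 and 0.104. KO 1 and KO 2 correlated best with the WT library of their own number, KO 3 with WT 1 (0.0188), so that the rule for pairing was missed by 1 pair. With the replicate block, Cx3cr1 had 1.03 ± 0.10 (edgeR adjusted p = 0.0502) and Fcrls 0.91 ± 0.12 (edgeR adjusted p = 0.0706). Aif1, Siglech and Trem2 rest on 33 to 175 counts per library, and the part of depth in their missed calls was not tested. The fit without KO 3 and WT 2 and the sum over 7 markers were chosen after seeing the data.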
